A study of Danio rerio with 12 samples.

Results

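The genes described here are 10 named components of the piRNA pathway and of the germ granule: the Piwi genes piwil1 and piwil2, the Tudor genes tdrd1, tdrd5, tdrd6, tdrd7a, tdrd9 and tdrkh, the Vasa gene ddx4, and mael. They were chosen by name and matched to Ensembl gene IDs through a symbol table, ignoring case. That found 9 of the 10 among the 33737 IDs in the counts, 1 ID for each symbol. The table has no entry for mael, which is not analysed here. All 9 passed the filter on low counts.

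RNA was sequenced from testis tissue of adult wild-type zebrafish after 48 h of incubation. In the Fsh group (6 libraries) the medium held trilostane, which blocks the making of steroid hormones, together with Fsh, the pituitary follicle-stimulating hormone. In the control group (6 libraries) it held trilostane alone, so the comparison shows what Fsh adds in the presence of trilostane. How far steroid synthesis was inhibited in each group cannot be read from these counts. The submitters call the 6 libraries of a group biological replicates. The sources used here do not state the doses, the strain or whether tissue was pooled.

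The piRNA pathway protects the germ line from transposons. Piwi proteins carry small RNAs, the piRNAs, that guide them to transposon transcripts, and cut transcripts are turned into further piRNAs. Much of this takes place in nuage, the granules at the nuclear envelope and mitochondria of germ cells, where the helicase Vasa and proteins with Tudor domains collect. Tudor domains bind methylated arginines in the tails of Piwi proteins. Zebrafish that lack either Ziwi (the product of piwil1) or Zili (that of piwil2) lose their germ cells. The Fsh receptor is on somatic cells of the testis, so any effect of the hormone on germ cells is passed on through those cells.

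The tissue held the RNA of the cells named by its label. Summed levels in CPM (counts scaled to the library total, with TMM factors between libraries) of 9 meiotic germ cell genes ran from 2052 to 3238 in the Fsh group and from 2359 to 3475 in controls, and those of 9 spermatid genes from 1024 to 1435 and from 1031 to 1654. The germ cell genes dazl and dnd1 averaged 182 ± 29.3 and 19.3 ± 4.49 CPM in the Fsh group and 170 ± 42.2 and 20.8 ± 7.96 CPM in controls (SD, n = 6 each). Summed levels of 5 oocyte genes stayed between 4.87 and 16.0 CPM in the Fsh group and between 7.26 and 12.6 CPM in controls, and figla was at 0 counts in all libraries. That sum leaves out buc, a further oocyte marker that was listed with the germ granule genes. It averaged 15.5 ± 3.93 CPM in the Fsh group and 18.5 ± 3.78 CPM in controls, above the median sums of 10.4 and 8.68 CPM. Libraries held 4695095 to 11497588 counts. Totals, detected genes and the share of the 10 most abundant genes were tested between the groups and none passed (exact two-sided permutation tests, adjusted p = 0.519 for each of the 3).

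With Fsh, none of the 9 genes passed the test. Their log2 fold changes ran from -0.08 for piwil1 to 0.15 for tdrd9, with 6 above 0 and 3 below. The median was 0.05, against 0.00173 over all 19317 genes tested. All 9 of the 95% intervals included 0, and the bounds farthest from 1 were 0.767-fold for piwil1 and 1.40-fold for ddx4. Of all genes tested 1.63% passed (315 genes; edgeR quasi-likelihood test, adjusted p under 0.05), 0.865% higher and 0.766% lower with Fsh. A count of 0 in 9 is near that background and is by itself no result about these genes. At an unadjusted p under 0.05 stood 0 of the 9, against 17.4% of all genes tested. DESeq2 and limma-voom also called 0 of the 9, against 5.49% and 1.87% of all genes tested. The levels of the groups overlapped for each of the 9, while 1.93% of all genes tested had groups that did not overlap. A p that misses the threshold does not show that levels were equal, and in whole tissue fewer cells of a type and less RNA per cell cannot be told apart.

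**Figure D1:**
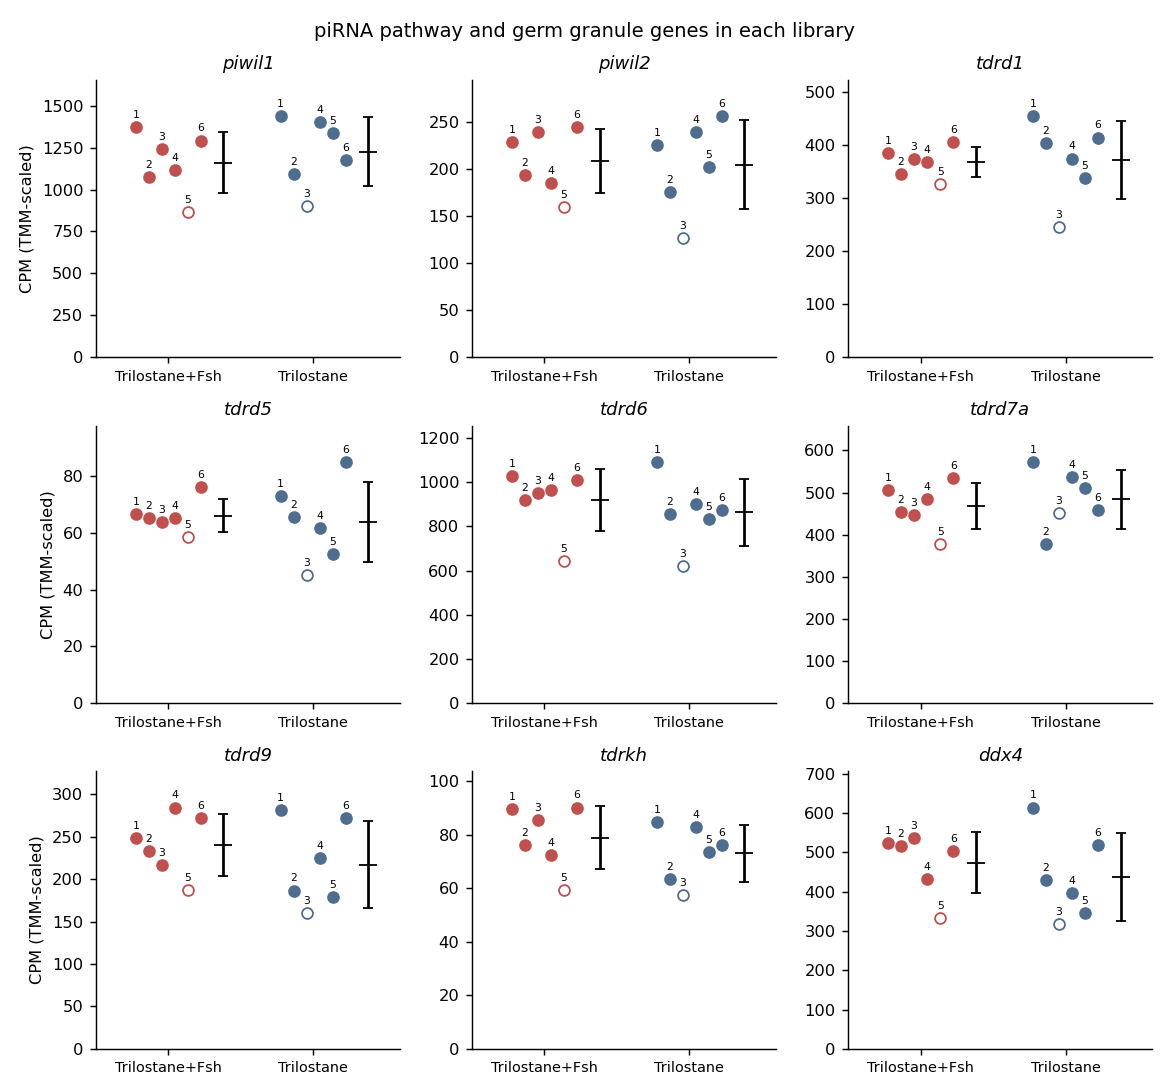
CPM (TMM-scaled, y axes from 0) of the 9 genes in each library, with Trilostane+Fsh libraries in red and Trilostane libraries in blue; numbers are library numbers, black bars are mean ± SD (n = 6), and hollow circles mark Fsh library 5 and control library 3. The groups overlap in every panel, and the hollow circles lie lowest in their group except for control library 3 in the tdrd7a panel.

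The Piwi genes come first, as the proteins that hold the piRNAs. The gene piwil1 (ENSDARG00000041699) had 866, 1180 and 1371 CPM (lowest, median, highest) in the Fsh group, against 902, 1255 and 1439 CPM in controls. Its log2 fold change was -0.08 ± 0.14 (SE; 95% interval -0.38 to 0.23; edgeR, adjusted p = 0.825). The lowest libraries of both groups lay close together, and so did the highest. The gene piwil2 (ENSDARG00000062601), whose protein Zili works with Ziwi in the cycle that amplifies piRNAs, had 160, 211 and 245 CPM in the Fsh group, against 127, 214 and 256 CPM in controls. Its log2 fold change was 0.03 ± 0.16 (interval -0.32 to 0.38; adjusted p = 0.949), and all 6 Fsh libraries lay inside the range of the controls.

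Levels of different genes were not compared, since gene lengths were not used, but a ratio of 2 genes within a library can be compared between libraries. The CPM ratio of piwil2 to piwil1 was 0.166, 0.182 and 0.192 (lowest, median, highest) in the Fsh group, against 0.141, 0.159 and 0.218 in controls. On the log2 scale it averaged -2.48 ± 0.09 in the Fsh group and -2.60 ± 0.22 in controls (SD, n = 6 each), a difference of 0.12. On that scale each of the 6 Fsh ratios exceeded the control mean, Fsh library 4 only narrowly (-2.5919 against -2.6015). Control library 6 held the highest ratio of all 12, and the difference did not pass (exact two-sided permutation test, p = 0.232, adjusted p = 0.232 over 2 ratios). Without control library 6 it passed, at a difference of 0.21 and adjusted p = 0.0260 (exact permutation test), so that 1 library decides the call. This was 1 of 12 omissions of a library, and in the other 11 it did not pass. The adjustment covers the 2 ratios and not the omissions. The other ratio, ddx4 to piwil1, was 0.381, 0.389 and 0.479 in the Fsh group, against 0.259, 0.372 and 0.441 in controls. Its log2 difference of 0.21 did not pass either (exact permutation test, p = 0.208, adjusted p = 0.232), with each of the 6 Fsh ratios above the control mean. Of the control libraries, numbers 1, 2 and 6 lay inside the Fsh range and the others below it.

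The helicase gene ddx4 (ENSDARG00000014373), whose protein Vasa marks germ cells across animals, had 332, 509 and 537 CPM in the Fsh group, against 317, 413 and 614 CPM in controls. Its log2 fold change of 0.12 ± 0.17 had the highest upper bound of the 9 (interval -0.25 to 0.48; adjusted p = 0.768). Controls spread more widely than Fsh libraries, with a coefficient of variation of 16.6% in the Fsh group and 25.6% in controls.

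Among the Tudor genes, tdrd1 and tdrd6 encode scaffolds with several Tudor domains that bind Piwi proteins. In zebrafish Tdrd1 is a component of nuage, and Tdrd6 binds the germ plasm organiser Bucky ball. The gene tdrd1 (ENSDARG00000007465) had 326, 370 and 405 CPM in the Fsh group, against 245, 389 and 454 CPM in controls, at a log2 fold change of -0.02 ± 0.13 (interval -0.30 to 0.27; adjusted p = 0.967). The Fsh libraries sat inside the range of the controls. The gene tdrd6 (ENSDARG00000070052) had 644, 958 and 1028 CPM in the Fsh group, against 622, 865 and 1093 CPM in controls, at a log2 fold change of 0.09 ± 0.14 (interval -0.22 to 0.40; adjusted p = 0.790). Here 5 Fsh libraries lay above the control mean, from 919 to 1028 CPM, and Fsh library 5 stood apart at 644 CPM.

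The genes tdrd5 and tdrd7a encode proteins with LOTUS domains beside Tudor domains, a fold that in the fly protein Oskar binds Vasa, and both are needed for the granules of male germ cells in mice. The gene tdrd5 (ENSDARG00000071450) had 58.6, 65.4 and 76.3 CPM in the Fsh group, against 45.2, 63.6 and 85.1 CPM in controls (log2 fold change 0.05 ± 0.14, interval -0.24 to 0.34, adjusted p = 0.893). Its Fsh libraries spanned the narrower range, inside that of the controls. The gene tdrd7a (ENSDARG00000032808) had 378, 469 and 534 CPM in the Fsh group, against 377, 484 and 573 CPM in controls (-0.05 ± 0.12, interval -0.31 to 0.20, adjusted p = 0.867). It was the 1 gene of the 9 for which control library 3 was not the lowest control.

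The remaining Tudor genes act on piRNA production in mice, tdrd9 as a helicase and tdrkh as a mitochondrial partner of Piwi proteins during trimming of piRNA ends. The gene tdrd9 (ENSDARG00000013453) had 187, 241 and 284 CPM in the Fsh group, against 160, 205 and 282 CPM in controls, and its log2 fold change was the highest of the 9 at 0.15 ± 0.15 (interval -0.19 to 0.48; adjusted p = 0.669). The gene tdrkh (ENSDARG00000053474) had 59.4, 80.9 and 90.1 CPM in the Fsh group, against 57.6, 74.8 and 84.5 CPM in controls (0.11 ± 0.13, interval -0.16 to 0.38, adjusted p = 0.687). In both genes 4 of 6 Fsh libraries lay above the control mean.

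**Figure D2:**
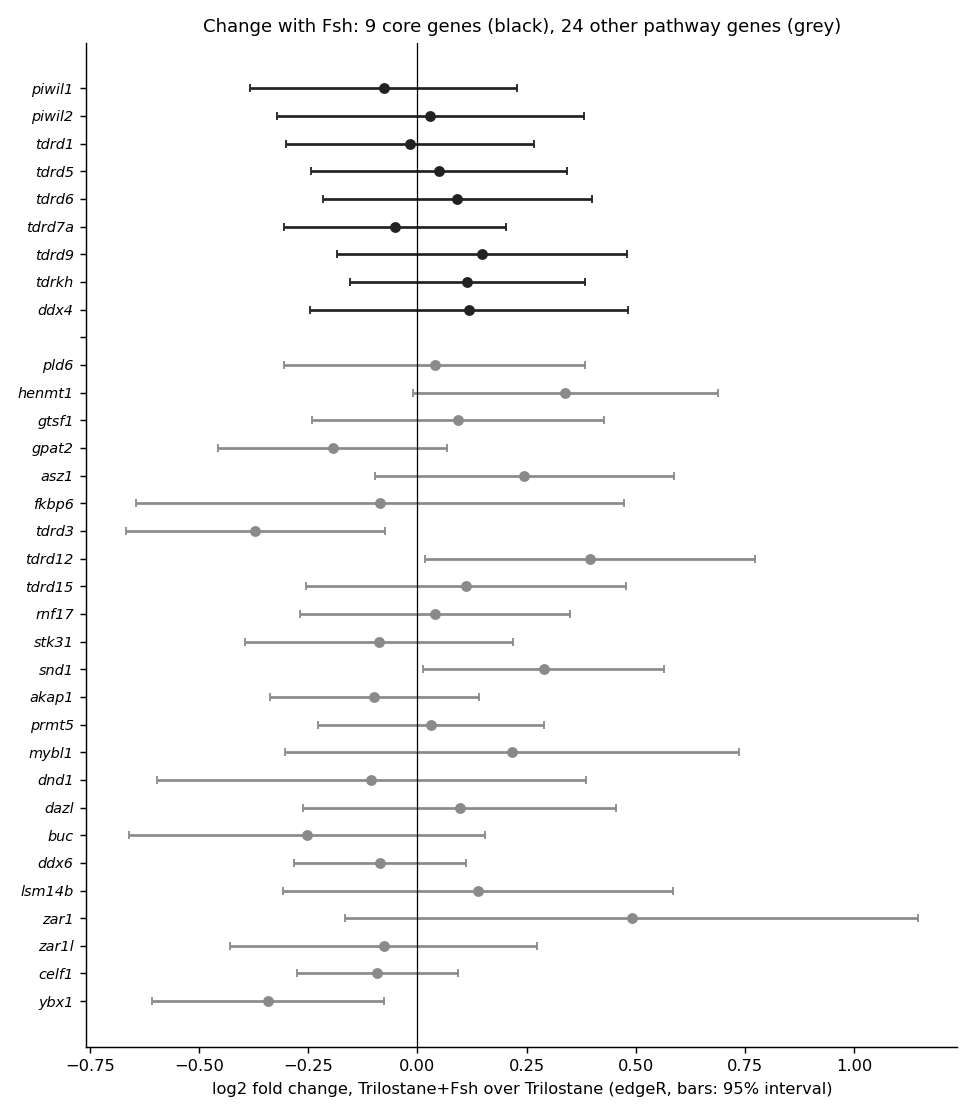
Log2 fold change, Trilostane+Fsh over Trilostane, with its 95% interval (edgeR, 6 libraries per group) for the 9 genes described above (black) and for 24 other genes of the pathway and of germ granules (grey). All black intervals cross 0, and 4 grey ones do not, although no gene passed after adjustment.

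The rest of the pathway was read from a list of 41 other piRNA and germ granule genes, of which 26 matched the counts and 24 passed the filter on low counts. Of the 24, 0 rose and 0 fell after adjustment (edgeR), with 13 fold changes above 0 and 11 below and a median log2 fold change of 0.03. DESeq2 and limma-voom called 0 as well, against the 5.49% and 1.87% of all genes given above, and 1.63% in edgeR. Counts of 0 in 24 are near these shares and are by themselves no result about these genes. At an unadjusted p under 0.05 stood 4 of 24 (16.7%), close to the 17.4% of all genes tested. These were ybx1, a cold-shock RNA-binding protein, at 356 ± 43.2 CPM in the Fsh group and 452 ± 71.7 CPM in controls (log2 fold change -0.34 ± 0.12, adjusted p = 0.172), and 3 Tudor genes. The gene tdrd3, which is not restricted to germ cells, averaged 45.6 ± 6.97 CPM in the Fsh group and 59.0 ± 10.4 CPM in controls (-0.37 ± 0.14, adjusted p = 0.184). The gene tdrd12, needed for piRNA amplification in mice, averaged 87.0 ± 15.3 CPM in the Fsh group and 66.1 ± 18.5 CPM in controls (0.40 ± 0.18, adjusted p = 0.267). The gene snd1, a broadly expressed Tudor nuclease, averaged 171 ± 29.8 CPM in the Fsh group and 140 ± 21.0 CPM in controls (0.29 ± 0.13, adjusted p = 0.267).

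Of 6 piRNA processing genes tested, 0 passed (edgeR). The methyltransferase gene henmt1, whose product adds a methyl group to the 3' ends of piRNAs, averaged 25.7 ± 6.08 CPM in the Fsh group and 20.3 ± 3.13 CPM in controls (0.34 ± 0.16, adjusted p = 0.302). The genes asz1 and gpat2, for mitochondrial membrane proteins of the pathway, had log2 fold changes of 0.25 ± 0.16 (adjusted p = 0.462) and -0.19 ± 0.12 (adjusted p = 0.444). Of 9 germ granule RNA-binding genes tested, zar1 had the highest fold change at 0.49 ± 0.31 (adjusted p = 0.438), on means of 1.94 ± 0.84 CPM in the Fsh group and 1.36 ± 0.16 CPM in controls, near the 0.261 to 0.639 CPM that a count of 0 allows in these libraries (counting error only). The genes nanos3 and ca15b did not pass the filter. The Argonaute and microRNA genes, the small RNA machinery that somatic cells share, had a median log2 fold change of -0.03 over 9 tested, and 0 passed (edgeR; 2 at an unadjusted p under 0.05). Their smallest p was that of tnrc6a, a GW182 protein, at -0.27 ± 0.10 (adjusted p = 0.185).

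**Figure D3:**
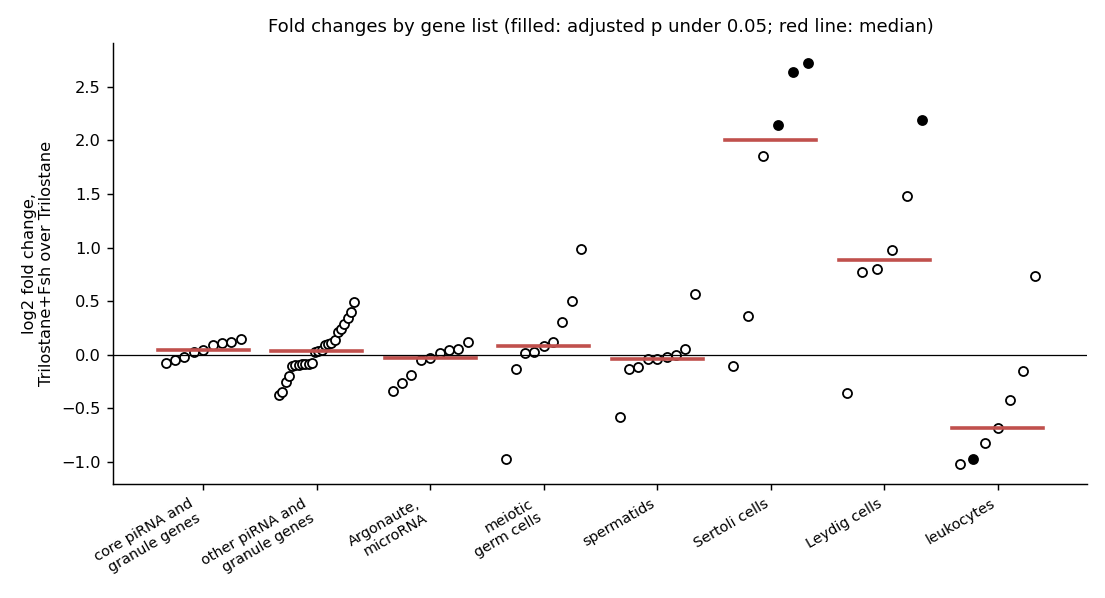
Log2 fold change, Trilostane+Fsh over Trilostane, of each tested gene (circles, filled where the adjusted p was under 0.05) in 8 gene lists, with the median of each list as a red line. The 9 core genes span -0.08 to 0.15 around a median of 0.05, and the filled circles lie in the Sertoli cell, Leydig cell and leukocyte lists.

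In the same fit 3 of 6 Sertoli cell genes and 1 of 6 Leydig cell genes rose. The genes igf3 and insl3 had the smallest p of these lists. The Sertoli cell growth factor gene igf3 averaged 7.98 ± 2.79 CPM in the Fsh group and 1.73 ± 0.87 CPM in controls (log2 fold change 2.14 ± 0.34, adjusted p = 0.00819). Its control levels were low, with 2 counts in control library 1 (0.426 CPM), under the 0.639 CPM that a count of 0 allows there. The Leydig cell hormone gene insl3 averaged 194 ± 71.9 CPM in the Fsh group and 42.5 ± 23.0 CPM in controls (2.19 ± 0.37, adjusted p = 0.0118). The median log2 fold change was 2.00 over 6 Sertoli cell genes and 0.89 over 6 Leydig cell genes, in each of which the hormone receptor gene was the 1 below 0 (fshr at -0.11, lhcgr at -0.36; adjusted p = 0.726 and 0.521). It was 0.08 over 9 meiotic genes and -0.04 over 9 spermatid genes, and 0 of these germ cell genes passed (edgeR; 3 and 1 at an unadjusted p under 0.05). The smallest p among meiotic genes was that of dmc1, the meiotic recombinase (0.98 ± 0.32, adjusted p = 0.136). It passed in DESeq2 (adjusted p = 0.0488), where 5.49% of all genes did. It also passed when Fsh library 5 was left out (adjusted p = 0.0345). In the other 19 alternative tests, scalings, filters, fits and omissions dmc1 did not pass (adjusted p up to 0.267). The other meiotic genes at an unadjusted p under 0.05 went in opposite directions. They were msh5 (-0.97 ± 0.44, adjusted p = 0.273) and msh4 (0.50 ± 0.20, adjusted p = 0.226). Among spermatid genes the smallest p was that of spata17 (-0.58 ± 0.17, adjusted p = 0.105). It passed in DESeq2 (adjusted p = 0.0365) and when control library 2 was left out (adjusted p = 0.0322). In the other 19 alternatives spata17 did not pass (adjusted p up to 0.224). Of 7 leukocyte genes tested, with a median of -0.68, the T cell co-receptor gene cd4-1 fell (-0.97 ± 0.21, adjusted p = 0.0371). That call was lost without Fsh library 2, 3, 4 or 6 or control library 2, 4 or 5 (adjusted p up to 0.0920), and also with library size as the only scaling (0.0540), without the filter on low counts (0.0596) and with the replicate number as a block (0.0627). The red blood cell gene hbaa2 (0.16 ± 0.29, adjusted p = 0.821) and the oocyte gene gdf9 (0.46 ± 0.59, adjusted p = 0.730) had the smallest p of their lists, of which 1 and 3 genes were tested. The value of gdf9 was 0.06 without Fsh library 1 and 1.24 without control library 6.

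Differences between libraries of a group were shared by most of the 9 genes. Fsh library 5 was the lowest of the Fsh group for 9 of 9 genes, and control library 3 the lowest control for 8 of 9. Control library 1 was the highest control for 7 genes and control library 6 for the other two, piwil2 and tdrd5. The summed level of the 9 genes was 3010 CPM in Fsh library 5 and ran from 3879 to 4447 CPM in the other Fsh libraries. It was 2927 CPM in control library 3 and ran from 3652 to 4838 CPM in the other controls. The low levels were not particular to the 9 genes. The summed level of the 26 other matched pathway genes was also lowest in these libraries. That sum was 2229 CPM in Fsh library 5, against 2423 to 2586 CPM in the other Fsh libraries. In control library 3 it was 2243 CPM, against 2353 to 2658 CPM in the other controls. How many of all genes were lowest in these libraries was not counted. For the 9 genes, coefficients of variation lay between 7.72% and 16.6% in the Fsh group and between 14.5% and 25.6% in controls. They were larger in controls for 8 of 9 genes. Both libraries had the lowest TMM factor of their group, 0.962 in Fsh library 5 and 0.891 in control library 3. Levels in CPM are divided by this factor, so a low factor raises them. The 10 most abundant genes took 20.8% of the counts in Fsh library 5, in a group that ran from 18.7% to 20.8%, and 22.7% in control library 3, the highest share of the 12. Their part in the low levels was not tested. Counting error was smaller, at most 5.41% in any library for any of the genes.

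**Figure D4:**
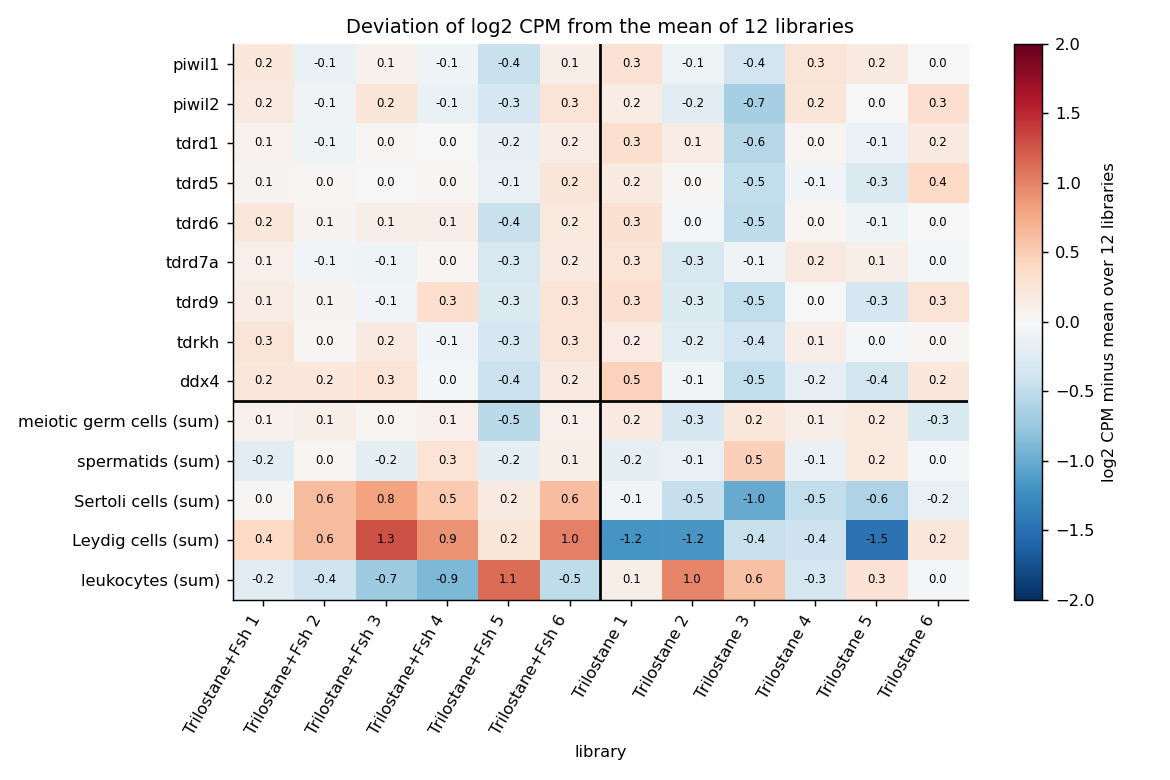
Log2 CPM of the 9 genes, and log2 of the summed CPM of 5 cell type lists, as the deviation from the mean of all 12 libraries (colour and printed value), with Trilostane+Fsh libraries left of Trilostane libraries. Fsh library 5 and control library 3 are blue for most of the 9 genes. They lie on opposite sides of the mean in the meiotic, spermatid, Sertoli cell and Leydig cell sums, and both above it in the leukocyte sum. The Sertoli and Leydig cell sums differ between the groups, with medians of 615 and 362 CPM with Fsh and 298 and 126 CPM in controls. Within its group Fsh library 5 was low in both (470 CPM in a range of 420 to 726, and 251 CPM, the lowest). Control library 3 was the lowest control in the Sertoli cell sum (206 CPM) but not in the Leydig cell sum (157 CPM).

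Sums of cell type markers were also far from the other libraries in some of these cases. Fsh library 5 had the highest summed level of 8 leukocyte genes of its group, 258 CPM against 63.8 to 102 CPM in the other Fsh libraries, and the lowest meiotic sum, 2052 CPM against 3060 to 3238 CPM. Control library 3 had a leukocyte sum of 178 CPM among controls of 94.5 to 234 CPM, and the highest meiotic and spermatid sums of the controls, 3475 and 1654 CPM. Its Sertoli cell sum of 206 CPM was the lowest of the 12 libraries, against 269 to 400 CPM in the other controls. Most of the Sertoli cell sum in controls came from 1 gene, dmrt1, at 179 to 290 CPM. The next most abundant there, amh, ran from 2.55 to 62.2 CPM. The meiotic sum of that library rests on sycp1, at 2317 CPM against 1464 to 1962 CPM in the other controls. Its other 8 meiotic genes summed to 1158 CPM, inside the 895 to 1642 CPM of the other controls. Of the 9 meiotic genes, 2 were highest there among the controls and 1 was lowest. Besides sycp1 these were hormad1 at 434 CPM and smc1b at 248 CPM, the highest and the lowest of the 12 libraries. Of the 9 spermatid genes 6 were highest there among the controls. In Fsh library 5 each of the 9 meiotic genes was the lowest of its group. The leukocyte sum had a median of 86.5 CPM with Fsh and 137 CPM in controls. The part of these cell types in the levels of the 9 genes was not tested. Without both libraries, a choice made after their values were seen, 0 of the 9 genes and 0 of the 24 others passed.

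Most pairs of the 9 genes were correlated across libraries. Over all 36 pairs, Pearson r of log2(CPM + 0.5) across the 12 libraries ran from 0.217 to 0.895 with a median of 0.758, and 28 pairs passed (permutation test, 100000 resamples, adjusted over 36 pairs). Spearman's rho ran from 0.273 to 0.895 with a median of 0.619, and 11 pairs passed. Beside this, the median r over all pairs of the 14770 tested genes with a mean of at least 5 CPM was -0.0044. Of those pairs 1.29% lay above 0.758. That background is not limited to genes of germ cells, so it cannot show whether the correlation is particular to the 9. Within the groups the median r of the 36 pairs was 0.858 over 6 Fsh libraries and 0.804 over 6 control libraries, with all 36 above 0 in each. When the 2 libraries farthest from the median of a pair's first gene were left out, the median r was 0.515, 35 of 36 pairs were above 0 and 4 passed. In 33 of the 36 pairs control library 3 was among those left out. Without control library 3 alone 17 pairs passed, and without both control library 3 and Fsh library 5, 0 did. Such omissions also narrow the range of levels and leave fewer libraries. Points share library depth, scaling and the make-up of the tissue.

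**Figure D5:**
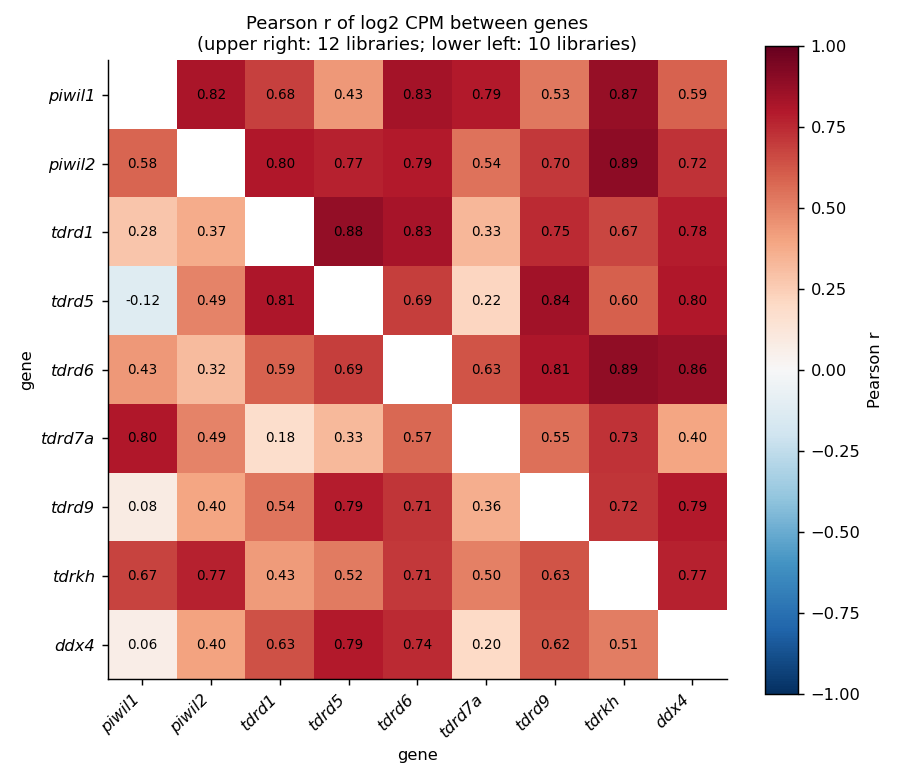
Pearson r of log2(CPM + 0.5) for each pair of the 9 genes, over all 12 libraries (upper right) and without the 2 libraries farthest from the median of the pair's first gene (lower left). Values are between 0.217 and 0.895 in the upper part and between -0.121 and 0.805 in the lower part.

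The 4 pairs that passed on 10 libraries were piwil1 with tdrd7a, tdrd1 with tdrd5, tdrd5 with tdrd9, and tdrd5 with ddx4. The 10 libraries were not the same for each pair. Pairs led by piwil1 left out control library 3 and Fsh library 5. The pair of tdrd1 and tdrd5 left out control libraries 1 and 3, and pairs led by tdrd5 left out control libraries 3 and 6. For tdrd1 and tdrd5, r was 0.876 over 12 libraries (permutation test, adjusted p = 0.00168; rho = 0.895, adjusted p = 0.00792) and 0.805 over 10 (permutation test, adjusted p = 0.0481). For piwil1 and tdrd7a, r was 0.789 (permutation test, adjusted p = 0.00591; rho = 0.839, adjusted p = 0.0130) and 0.800 over 10 (permutation test, adjusted p = 0.0481). By contrast piwil1 and tdrd5 had an r of 0.435 (permutation test, adjusted p = 0.172; rho = 0.336, adjusted p = 0.302) and -0.121 over 10 libraries (permutation test, adjusted p = 0.788). The gene tdrd7a passed in 3 of its 8 pairs.

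Among 11202 other named genes with a mean of at least 5 CPM, 5 had profiles most like the mean profile of the 9, measured as the root mean square difference of standardised log2(CPM + 0.5) over 12 libraries. The first 2, ACSL5 and CHTF18, were closer to that profile than any of the 9 genes themselves. They are the closest of 11202 genes searched, while the 9 were not picked for likeness, so the comparison is uneven. The 5 were ACSL5, an acyl-CoA synthetase (0.292), CHTF18, part of a clamp loader of DNA replication (0.294), AKR1B1 (ENSDARG00000045598), an aldose reductase (0.314), CPSF2, a subunit of the mRNA cleavage and polyadenylation complex (0.331), and rbm44, an RNA-binding protein known in mice from the bridges between germ cells (0.343). The 9 genes themselves lay between 0.304 for tdrd6 and 0.778 for tdrd7a from that mean. The gene rbm44 had 170, 246 and 265 CPM (lowest, median, highest) in the Fsh group, against 180, 221 and 250 CPM in controls (log2 fold change 0.09 ± 0.12, edgeR, adjusted p = 0.735). None of the 5 passed with Fsh (edgeR). They were chosen for likeness to the 9 over these same libraries, so that is no separate result.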

How the data were processed

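The submitters' processing notes name CASAVA 1.8, STAR 2.3 and HTSeq with genome build Zv9; the sources used here do not state the annotation release, the strand setting or how reads matching more than 1 gene were treated, so genes with a near-identical copy or an antisense partner are uncertain. Each deposited file holds raw counts, whole numbers per Ensembl gene ID, with no entries for unassigned reads. A symbol table named 21939 of 33737 IDs, and 91 of 129 list entries matched.

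Counts were tested in R 4.3.3 with edgeR 4.0.16 (glmQLFit, glmQLFTest), TMM scaling, filterByExpr by group, no covariates and Benjamini-Hochberg adjustment over 19317 genes; every adjusted p without another test named is from edgeR. SE is the absolute log2 fold change divided by the square root of F. Ratios and library measures had exact permutation tests over 924 arrangements, and pairs of genes 100000 resamples, in Python 3.11.15. Alternatives used DESeq2 1.42.0, limma 3.58.1 (voom), other scalings, filters and fits, and the omission of libraries. Replicates of a group differed beyond sampling noise (chi-square per degree of freedom 5.43 to 43.0 over 30 pairs). The pipeline was tested on simulated data.

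The genes and lists were chosen with earlier results of these data known. Named genes were the 9 matched genes, the 8 smallest p of the pathway list, the smallest p of each other list and the 5 of like profile. Nothing says that libraries came from separate fish, beyond the submitters' word for replicates, so p-values measure the spread between these libraries.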

Additional observations from a re-analysis of the deposited data

Results flagged for a closer look

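In 1 of 64 groups of 6 libraries examined (the named genes and both ratios, in each group), a single library stood apart by Dixon's criterion at the 95% level, where chance alone gives about 1 group in 20, a larger share than was found. It was tdrd6 in the Fsh group, where Fsh library 5 had 644 CPM and the other libraries ran from 919 to 1028 CPM. Without that library the log2 fold change of tdrd6 was 0.18 (edgeR, adjusted p = 0.458).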

How the results depend on the processing

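Of the 9 genes and the 24 others of the pathway list, 0 passed under each of the 21 alternatives. These were 8 other tests, scalings, filters or fits, 12 omissions of a library and the omission of 2. Calls over all genes ran from 95 to 758 when 1 library was left out. Under the 8 other tests, scalings, filters or fits, 0.866% to 5.49% of all genes tested passed. Counts of 0 among so few genes are near such shares and are by themselves no result about these genes. The direction changed for genes with fold changes near 0. For tdrd1 the log2 fold change was 0.0066 in limma-voom, 0.0086 with library size as the only scaling and 0.0054 with the replicate number as a block, and -0.11 to 0.039 without 1 library. Without 1 library it ran from -0.075 to 0.10 for piwil2, -0.032 to 0.13 for tdrd5, -0.13 to 0.0029 for tdrd7a and -0.013 to 0.10 for CPSF2, and without both control library 3 and Fsh library 5 it was -0.011 for piwil2 and -0.0027 for tdrd5. The cause was not tested. The difference in the ratio of piwil2 to piwil1 ran from 0.079 to 0.21 without 1 library and was 0.071 without both, and that of ddx4 to piwil1 from 0.12 to 0.28. Pairs of genes that passed numbered 34 with library size as the only scaling, 17 to 31 without 1 library and 0 without both, on fewer libraries. With the replicate number as a block, 0 of the 9 genes passed and 381 genes in all, against 315 without it. Libraries of equal number correlated between 0.00994 and 0.269 in their deviations from group means, all above 0. Of the 12 libraries, 5 correlated best with their own number. These values do not settle whether equal numbers mark pairs, and the sources used here do not state it. The main fit left the numbers out, so any pairing is ignored there. The fits cannot show changes of the 9 genes smaller than their intervals.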
